A study of Homo sapiens and Mus musculus with 12 samples.

Results

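This account covers the colon of mice that lack Zfp280c and of wild-type mice, and the genes that separate these groups in every library. Colon tissue came from C57BL/6J animals at 12 weeks of age, with 3 Zfp280c knock-out and 3 wild-type libraries of polyadenylated RNA. These are 6 of the 12 libraries of the study, and the other 6 are of RKO, a human colon cancer line with a doxycycline-inducible shRNA against ZNF280C. The labels do not give the exon deleted, the cell type in which the gene was lost, the sex, the littermate relations or the stretch of colon sampled. They name no treatment of the mice. Nothing in them says whether a library is 1 animal or a pool, so p-values measure the spread between these libraries. Of 17383 genes measured, 11366 had a mean of at least 1 FPKM (fragments per kilobase of transcript, scaled to the mapped reads of the library) and were compared on the log2(FPKM + 1) scale. The members described are the 1923 genes whose 3 knock-out values all lay on the same side of all 3 wild-type values, 810 of them higher and 1113 lower in knock-out colon. The other 6017 genes lay under the minimum mean and were not sorted. Of the members, 34 higher genes passed that minimum only through the knock-outs and 39 lower genes only through the wild-types, so these had to differ.

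Zfp280c is the mouse counterpart of ZNF280C, a zinc finger protein of a small family, and zinc finger proteins of this kind bind DNA and act in the nucleus. The colon lining is a single layer of absorptive colonocytes, mucus-secreting goblet cells and hormone-secreting cells, renewed from stem cells in crypts and resting on a layer of fibroblasts, vessels, nerves, immune cells and muscle. Proximal and distal colon differ in many of their genes. In whole tissue, fewer cells of a type and less RNA per cell cannot be told apart.

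Epithelial markers were high in every library, in keeping with the tissue label. Epcam, a surface protein of epithelial cells, stood between 917 and 1061 FPKM in all 6, and Krt20, a keratin of mature colonocytes, between 604 and 1720.4 FPKM. Wild-type replicate 2 stood apart from the other wild-type libraries. A principal component analysis put 77.7% of the variance on its leading component, which placed it at -17.7, next to the knock-outs at -25.4, -19.2 and -18.0, and placed wild-type replicates 1 and 3 at 28.9 and 51.4. A score of position along the colon (the log2 level of 5 distal Hox genes subtracted from that of Hoxb6, Hoxb7 and Hoxb8, as means) did the same, at 1.88 in wild-type replicate 2, 1.28 to 2.68 in the knock-outs, and -2.43 and -4.42 in the other wild-types. A gene is called higher or lower below only where it separated with wild-type replicate 2 included.

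Zfp280c itself stood at 0.0900, 0.0900 and 0.220 FPKM in knock-out replicates 1, 2 and 3, and at 2.48, 2.25 and 3.17 FPKM in wild-type replicates 1, 2 and 3. All 3 knock-outs were near 0 and wild-type replicate 2 was at the level of the other wild-types, so the level matched the label of every library. The knock-out mean was 0.133 ± 0.0751 FPKM against 2.63 ± 0.479 (SD, n = 3 each), which is 5.06% of wild-type. The log2 fold change was -1.67 ± 0.14 (SE; adjusted p = 0.123, limma), and the exact two-sided permutation p was 0.1, the smallest that 3 against 3 allows. The fold change on this scale is damped by the added 1 FPKM; with 0.1 FPKM added it was -3.58. The 2 related family members did not separate. Zfp280b stood at 4.71, 4.98 and 4.89 FPKM in knock-outs and 5.06, 4.87 and 4.83 FPKM in wild-types. Zfp280d stood at 4.26, 3.71 and 4 FPKM against 3.81, 3.56 and 4.63 FPKM. Of 14 tested genes near Zfp280c on the X chromosome, only Zdhhc9, a palmitoyltransferase gene, separated, at 25.4, 24.3 and 23.1 FPKM in knock-outs and 18.7, 22.6 and 20.5 FPKM in wild-types.

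Across the colon, 7.13% of tested genes lay higher and 9.79% lower in all 3 knock-outs, 16.9% in all. In limma 0 of 11366 genes passed at an adjusted p under 0.05, and 1420 genes (12.5%) had an unadjusted p under 0.05, of which 1081 were separated genes. The separation is therefore a description of these 6 libraries, and no gene below passed over all genes with all libraries in the fit. Differences were mostly small, with a median of 0.35 on the log2 scale among higher genes and -0.27 among lower genes, against -0.02 over all genes tested. Only 88 higher and 60 lower genes, 1.30% of those tested, differed by at least 2-fold in their means on that scale. The excess of lower genes depended on scaling: with equal FPKM sums 1097 genes were higher and 808 lower, so that 57.6% of separated genes were higher against 42.1% as deposited, while median centring gave 1036 and 988 and quantile normalization 1056 and 1117.

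At the edge of the rule, the separation is a matter of hundredths. Cd9, a tetraspanin gene, was just inside: its knock-outs stood at 158.36, 143.08 and 153.7 FPKM and its wild-types at 275.46, 158.42 and 427.52 FPKM. Rnf220, also just inside, stood at 21.8, 17.32 and 23.65 FPKM against 23.66, 25.76 and 26.37 FPKM. Arv1 and Bad were just outside, each through a knock-out and a wild-type library with an equal value. In 381 members the groups lay less than 0.02 apart on the log2 scale.

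Wild-type replicate 2 was the wild-type library nearest to the knock-outs in 639 of the 810 higher genes (78.9%) and in 745 of the 1113 lower genes (66.9%). When it was left out, 2663 genes lay higher (23.5%) and 2838 lower (25.0%) in the knock-outs. Among those also tested with all libraries, wild-type replicate 2 was on the wild-type side in 810 of 2662 higher genes (30.4%) and in 1108 of 2829 lower genes (39.2%). Without it limma called 1045 genes higher (9.21%) and 816 lower (7.19%), Zfp280c among them (adjusted p = 0.00205). Of the 810 higher members 389 were called in that fit, and of the 1113 lower members 317. When the position score entered the limma fit, 0 genes were called, and the unadjusted p was under 0.05 in 426. Only wild-type replicate 2 lay within the knock-out range of this score, so differences fitted with the covariate lean largely on that library.

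A stricter view asks that the gap between the groups be wider than the range within either group. This rule was added after the values were seen, and 108 genes met it (0.950% of those tested), 43 higher and 65 lower. Of these, 65 had wild-type replicate 2 as the nearest wild-type (60.2%), 27 wild-type replicate 1 and 16 wild-type replicate 3. Their median difference was small as well, 0.27 in absolute log2 units, and 5 reached 2-fold on the log2(FPKM + 1) scale: Zfp280c, 5730507C01Rik, Lrrc8b, 9030624G23Rik and Dtx3l.

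**Figure D1:**
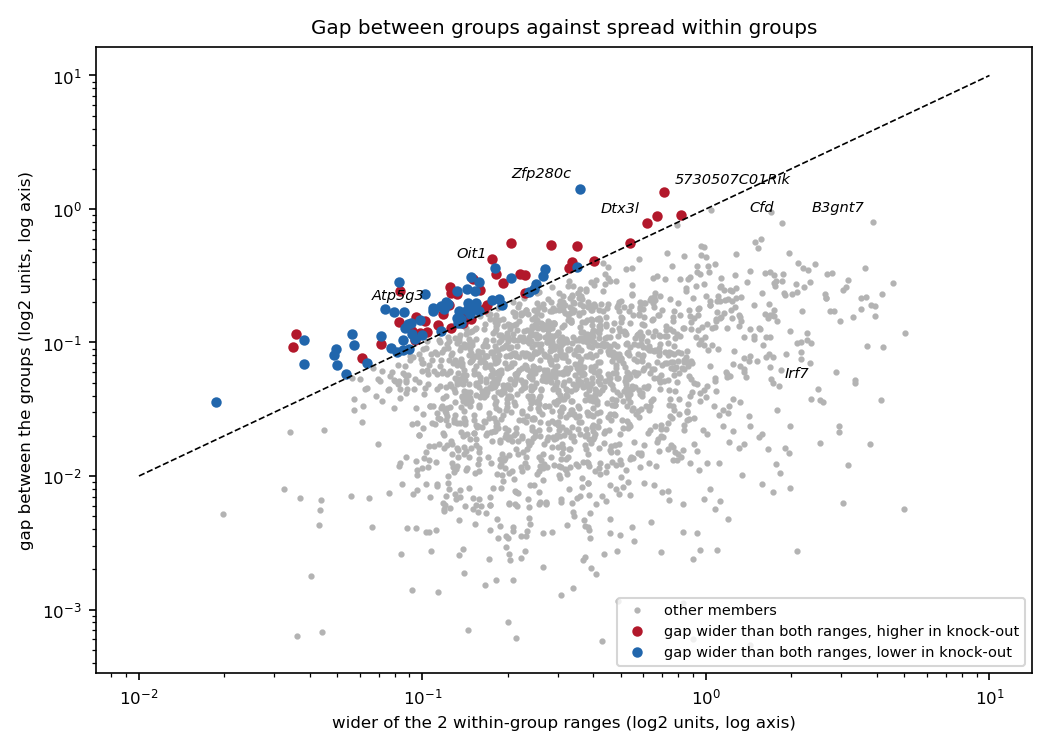
Gap between the groups (y, log2 units, log axis) against the wider of the within-group ranges (x, log2 units, log axis) for the 1923 separated genes. Coloured points above the dashed line of equality are the 108 genes whose gap exceeded both ranges; Zfp280c and 5730507C01Rik stand highest, while Irf7 and B3gnt7, with 1 widely spread group, and Cfd, with both widely spread, lie below the line.

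The widest gap among higher genes was that of 5730507C01Rik, an uncharacterised gene model. Its knock-outs stood at 32.2, 31.7 and 29.1 FPKM, and its wild-types at 6.29, 10.9 and 6.85 FPKM. The lowest knock-out was far above the highest wild-type, which was replicate 2. The mean was 3.86 times that of wild-type (log2 fold change 1.86 ± 0.19, adjusted p = 0.211, limma), the second lowest p of all genes after Zfp280c. A second model, 9030624G23Rik, behaved alike in shape at a lower level, with 5.38, 5.24 and 4.86 FPKM in knock-outs and 0.980, 2.16 and 1.14 FPKM in wild-types. These and the other model genes below have no role that can be stated here.

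Lrrc8b encodes a subunit of the volume-regulated anion channel, which opens when a cell swells. It stood at 7.01, 8.60 and 7.75 FPKM in knock-outs and at 1.86, 3.31 and 1.45 FPKM in wild-types. Every knock-out was above every wild-type by more than the range of either group (mean 3.53 times that of wild-type, log2 fold change 1.49 ± 0.22, adjusted p = 0.396, limma). The other tested subunits of the channel overlapped. Lrrc8a, its obligatory subunit, stood at 8.84, 9.97 and 9.79 FPKM against 11.6, 9.43 and 12.5 FPKM. Lrrc8d was at 5.16 to 6.55 FPKM in knock-outs and 3.88 to 5.86 FPKM in wild-types, and Lrrc8e at 6.95 to 8.09 FPKM and 5.55 to 8.12 FPKM.

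Dtx3l encodes a ubiquitin ligase that works as a pair with the ADP-ribosyltransferase-family protein PARP9 in DNA damage and interferon responses. Its knock-outs stood at 32.2, 25.1 and 28.1 FPKM and its wild-types at 10.3, 14.2 and 8.88 FPKM. Its mean in knock-outs was 2.56 times that in wild-types (log2 fold change 1.30 ± 0.18, adjusted p = 0.396, limma), and 0.92 with the position score as a covariate. Parp9 stood at 51.3, 42.6 and 43.9 FPKM against 28.3, 36.7 and 23.3 FPKM. Parp14, another family member, stood at 34.1, 28.5 and 31.0 FPKM against 17.3, 21.8 and 12.4 FPKM. Both were separated, yet by less than the spread of their wild-types, since wild-type replicate 2 reached more than the other wild-types.

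Zfp809, which recruits silencing machinery to retroviral elements, was the zinc finger gene with the widest gap among higher genes. It stood at 12.8, 12.99 and 14.6 FPKM in knock-outs and at 7.54, 8.47 and 6.78 FPKM in wild-types (log2 fold change 0.75 ± 0.11, adjusted p = 0.396, limma). The gene models Gm13251 (4.36, 4.21 and 4.10 FPKM against 1.96, 2.53 and 1.77) and Gm11437 (7.30, 7.40 and 7.24 FPKM against 3.79, 4.59 and 2.84) showed the same compact pattern. So did 2410141K09Rik, at 2.14, 1.91 and 1.78 FPKM against 0.890, 0.850 and 0.640 FPKM. In 2410141K09Rik and in Angptl2 (3.97, 4.61 and 3.75 FPKM against 2.50, 2.58 and 1.71), wild-type replicates 1 and 2 were almost equal. Reads of zinc finger and gene model families can be shared between near-identical copies, and how the authors counted such reads is not given in the sources used here. Among genes of the supporting tissue, osteoglycin, Ogn, a matrix proteoglycan, stood at 26.3, 23.1 and 23.3 FPKM against 15.3, 17.1 and 16.4 FPKM, with a narrow spread in both groups. Apod, a lipid-binding protein gene, stood at 2.70, 2.54 and 2.42 FPKM against 1.37, 1.59 and 1.05 FPKM. Kcnj8, a potassium channel subunit, stood at 3.30, 3.27 and 2.59 FPKM against 1.41, 1.80 and 1.23 FPKM. Angptl2, Apod and Kcnj8 were named after their values were seen.

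**Figure D2:**
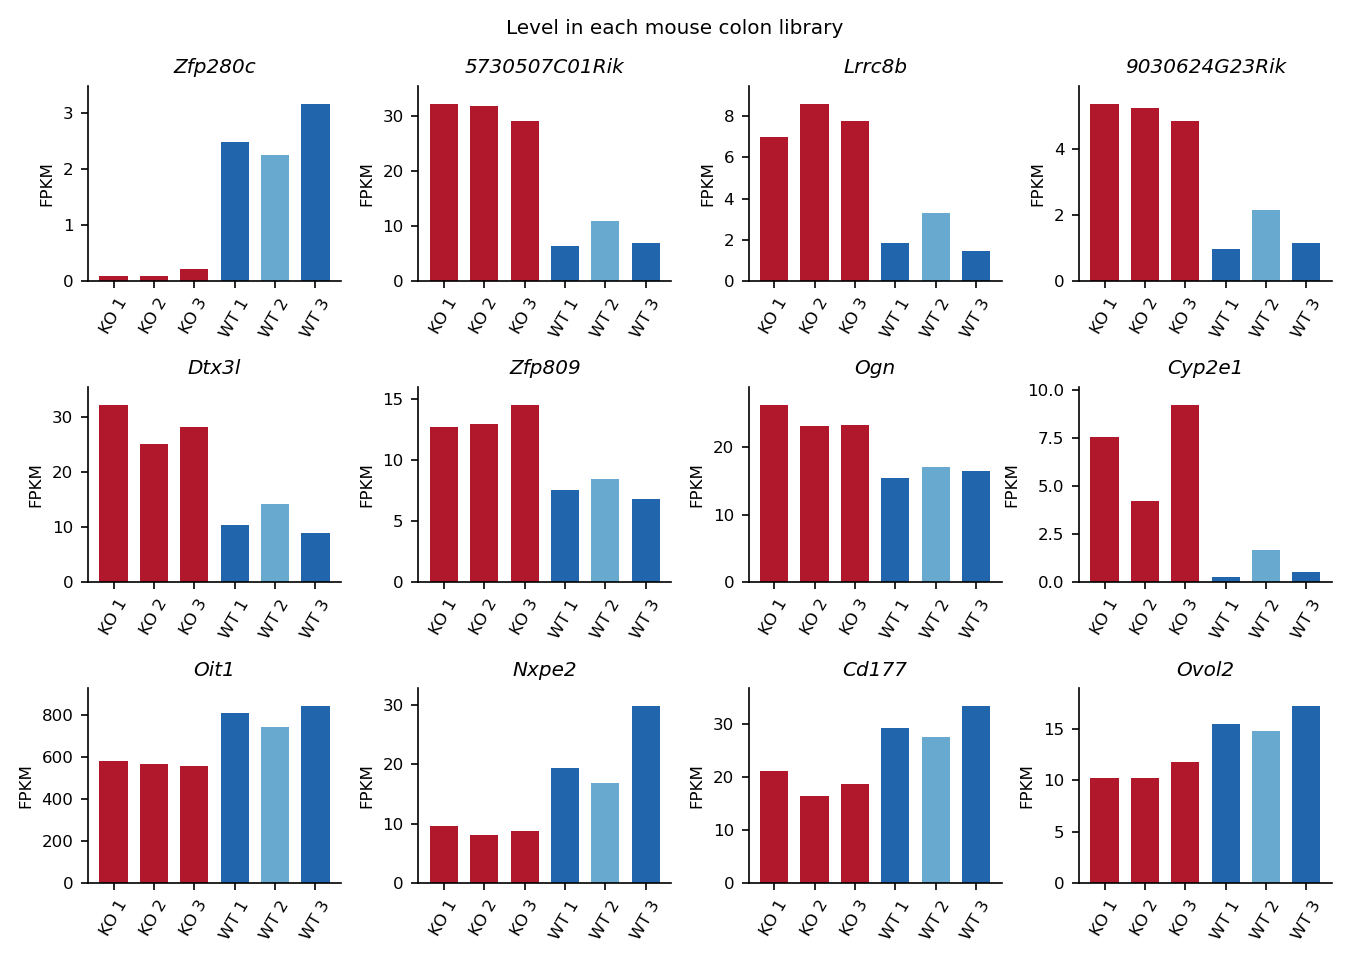
FPKM (y, linear from 0) of 12 genes in the 6 colon libraries: red bars are knock-outs (KO), dark blue bars wild-type (WT) replicates 1 and 3, and light blue bars wild-type replicate 2. In every panel the 3 knock-outs lie on the same side of all 3 wild-types, and wild-type replicate 2 is the wild-type nearest to them in all 12 panels.

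Oit1, Cd177 and genes of the Nxpe family, all expressed in the colon, were described as a list. Oit1, which encodes a secreted cytokine-like protein of the gut, stood at 580.1, 568 and 558 FPKM in knock-outs and 812, 745 and 844 FPKM in wild-types. No knock-out came near a wild-type library, and the group means were 569 ± 10.9 and 800.4 ± 50.7 FPKM (SD, n = 3 each; log2 fold change -0.49 ± 0.08, adjusted p = 0.396, limma). Cd177, a surface glycoprotein best known on neutrophils, stood at 21.2, 16.4 and 18.6 FPKM against 29.3, 27.6 and 33.4 FPKM. Nxpe2, of a neurexophilin-like family, stood at 9.58, 8.05 and 8.70 FPKM against 19.4, 16.9 and 29.8 FPKM. Its relative Nxpe4 stood at 2.09, 11.2 and 7.81 FPKM against 68.6, 15.02 and 51.2 FPKM, a separation that wild-type replicate 2 made narrow. In this list of Oit1, Nxpe and Cd177 genes, 4 of 6 were lower and 1 higher, which was Fam3b at 245, 269.7 and 219 FPKM against 158, 213 and 99.5 FPKM. The 4 stayed lower under each of the 3 rescalings, which reuse the values that chose these genes and so are no independent support. The list's median was -0.58, and -0.48 with the position score as a covariate. The list mean lay at -0.65, -0.43 and -0.54 in the knock-outs and at 0.03, -0.07 and 0.04 in the wild-types. The 4 lower genes have wild-type replicate 2 on the wild-type side by the rule. Its place in this mean, and with it the median under the covariate, was therefore largely set in advance. Neutrophil and mast cell markers separated in 0 of 3 tested. Summed over all 16 measured, tested or not, these markers stood at 17.5 to 20.5 FPKM in knock-outs and 23.4 to 279 FPKM in wild-types. Their part in Cd177 was not tested.

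Transcription factors of the gut epithelium separated at shares not far from those of all genes. Of 37 tested, 4 were higher (10.8%) and 5 lower (13.5%), against 7.13% and 9.79% over all genes tested. Their median was -0.02 (-0.08 with the position covariate). Foxa2, a pioneer factor of gut and secretory cells, stood at 3.28, 2.80 and 3.95 FPKM in knock-outs and 7.99, 5.75 and 11.0 FPKM in wild-types. Ovol2, which holds cells in an epithelial state, stood at 10.3, 10.2 and 11.8 FPKM against 15.4, 14.8 and 17.2 FPKM, and its gap was wider than either group's range. Id1, an inhibitor of differentiation factors, stood at 205, 189 and 228 FPKM against 268, 258 and 302 FPKM. Ehf, an epithelial ETS factor, stood at 86.3, 70.0 and 88.4 FPKM against 99.7, 94.1 and 111 FPKM. On the higher side were Pparg, the nuclear receptor of fat cells and colonocytes, at 72.8, 72.9 and 54.3 FPKM against 35.8, 51.2 and 28.6 FPKM, and Prdm1, a repressor that guides plasma cell formation and gut maturation, at 1.75, 2.54 and 1.93 FPKM against 0.850, 1.64 and 0.770 FPKM. In both of these wild-type replicate 2 came close to the lowest knock-out.

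The largest mean differences among lower genes belonged to genes that were uneven between the wild-types. B3gnt7, a glycosyltransferase gene, stood at 7.79, 8.07 and 9.17 FPKM in knock-outs and at 124, 16.7 and 260.0 FPKM in wild-types. Its log2 fold change was -3.16 ± 0.91 (adjusted p = 0.396, limma), and -1.03 with the position score as a covariate. Scnn1b, a subunit of the epithelial sodium channel of distal colon, stood at 2.36, 1.33 and 2.59 FPKM against 8.70, 3.96 and 18.4 FPKM. The related B3gnt5 (1.65, 2.04 and 2.17 FPKM against 9.50, 3.14 and 21.2) followed the same order, with wild-type replicate 2 just above the knock-outs. In these genes the 2 other wild-types differed from each other by more than wild-type replicate 2 differed from the knock-outs. Even wild-types were seen for Nrbp2 (9.82, 8.30 and 9.24 FPKM against 12.8, 14.2 and 15.7), a pseudokinase gene, for the copper chaperone Atox1 (65.9, 66.5 and 63.8 FPKM against 86.2, 79.4 and 87.8) and for Eif1b (11.7, 12.2 and 11.5 FPKM against 15.4, 15.6 and 15.1), a relative of a start-codon selection factor.

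**Figure D3:**
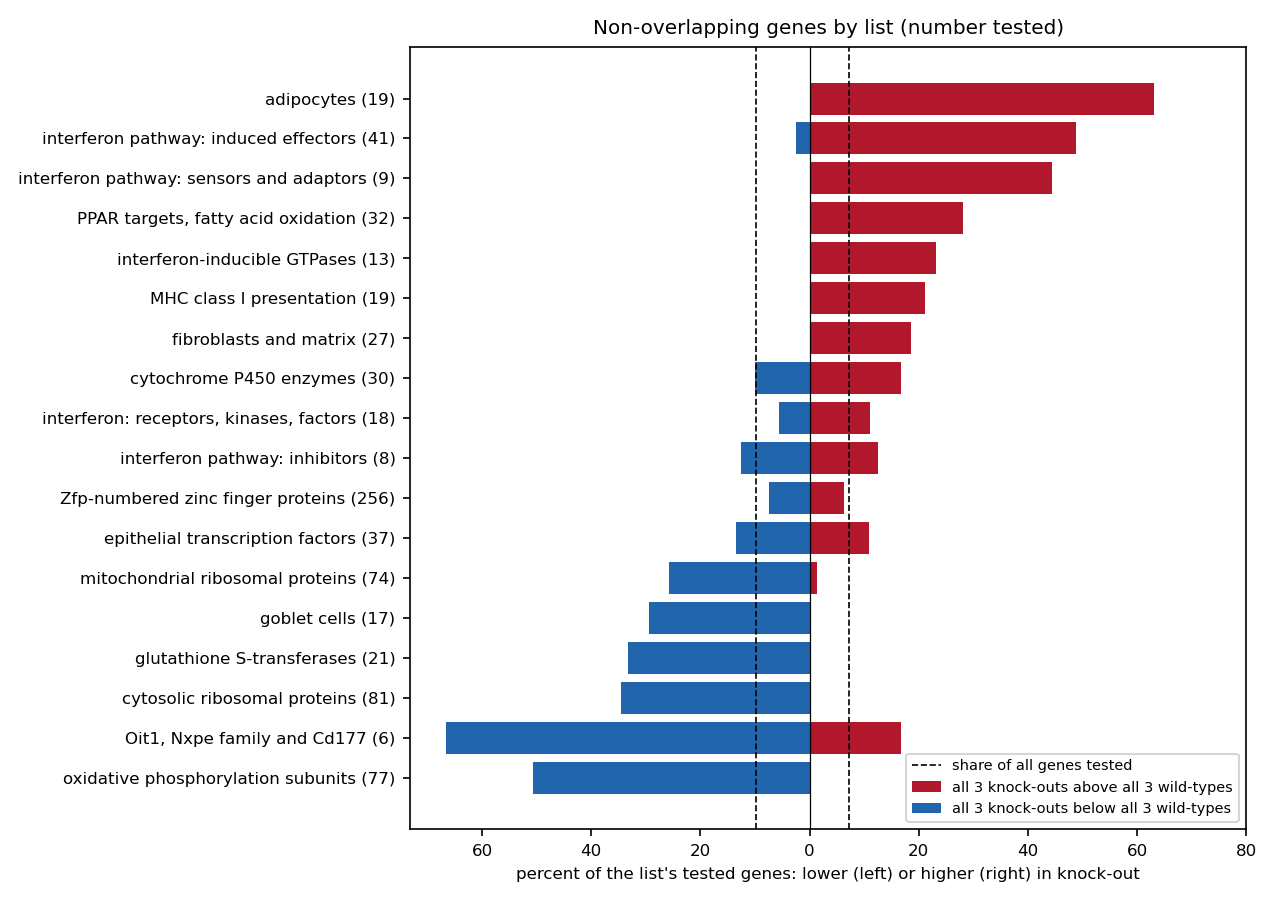
Percent of each list's tested genes (number in brackets) that were higher (right, red) or lower (left, blue) in all 3 knock-outs; dashed lines mark the shares over all 11366 genes, 7.13% and 9.79%. Adipocyte and interferon-induced lists extend far to the right of their line and respiratory chain, ribosome and glutathione S-transferase lists far to the left.

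Interferons are secreted signals against viruses. Sensors of foreign nucleic acid lead to their release, receptors pass the signal through JAK kinases to STAT and IRF factors, and these switch on effector genes, along with inhibitors that end the response. Among the sensors and adaptors, 4 of 9 were higher (44.4%) and 0 lower, against 7.13% and 9.79% over all genes tested. Their median was 0.50, and 0.20 with the position score as a covariate. Ifih1, a cytosolic sensor of long double-stranded RNA, stood at 40.1, 35.8 and 34.5 FPKM in knock-outs and 25.2, 29.4 and 23.1 FPKM in wild-types. Zbp1, a sensor of unusual nucleic acid forms, stood at 75.4, 58.9 and 69.7 FPKM against 37.2, 50.7 and 21.6 FPKM. Tlr3, an endosomal sensor of double-stranded RNA, stood at 15.6, 13.5 and 15.3 FPKM against 9.70, 12.3 and 8.98 FPKM. Ddx58, the sensor RIG-I, separated only narrowly, with 10.4 FPKM in its lowest knock-out and 10.2 FPKM in wild-type replicate 2.

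Receptors, kinases and transcription factors mostly overlapped, with 2 of 18 higher and 1 lower and a median of 0.06 (0.03 with the position covariate). Ifnar1, a chain of the type I receptor, was at 11.2 to 11.5 FPKM in knock-outs and 10.4 to 11.9 FPKM in wild-types. Stat2, a factor that carries the type I signal to the nucleus, stood at 33.1, 21.6 and 24.3 FPKM against 12.6, 23.3 and 10.0 FPKM, so that wild-type replicate 2 passed the lowest knock-out. Irf7, a factor that amplifies the response, stood at 336, 339 and 337 FPKM in knock-outs and 126, 326 and 57.3 FPKM in wild-types, and its knock-outs were nearly identical. Irf1, of the interferon gamma arm, stood at 115, 104 and 103 FPKM against 98.0, 90.8 and 88.2 FPKM. Irf2, which opposes Irf1, was the lower gene, at 34.1, 32.8 and 33.4 FPKM against 34.2, 34.5 and 44.6 FPKM.

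Of 41 induced effectors, 20 were higher (48.8%) and 1 lower, and 40 had a positive difference (median 0.90). Besides Dtx3l, Parp9 and Parp14 they included Ifit1bl1, at 365, 320.1 and 286 FPKM against 189, 223 and 155 FPKM. Rsad2, the antiviral enzyme viperin, stood at 26.9, 17.8 and 20.1 FPKM against 7.61, 14.98 and 4.37 FPKM. Ddx60 stood at 35.0, 27.2 and 26.8 FPKM against 9.40, 22.8 and 5.38 FPKM, and Samd9l, an antiviral growth regulator, at 62.4, 62.0 and 59.0 FPKM against 41.2, 50.5 and 30.9 FPKM. The lower gene was Ifi27, at 52.5, 47.4 and 53.2 FPKM against 70.9, 61.1 and 60.2 FPKM. Isg15, the ubiquitin-like modifier of the response, did not separate: knock-out replicate 2 stood at 159 FPKM and wild-type replicate 2 at 162 FPKM. Relative to the mean of the wild-types, the mean over the list was 1.19, 0.80 and 0.96 in knock-out libraries, 0.79 in wild-type replicate 2, and -0.08 and -0.72 in the other wild-types. The number higher went from 20 to 39 without wild-type replicate 2 and to 31 without knock-out replicate 2. Without wild-type replicate 2, 34 of the 41 were called higher in limma, against 9.21% of all genes in that fit. With the position score as a covariate the median was 0.14. Dtx3l was the only effector whose gap was wider than the range of either group.

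Inhibitors of the response were 1 of 8 higher and 1 lower. Trex1, a nuclease that removes DNA before it is sensed, was at 23.6, 18.5 and 18.6 FPKM against 10.6, 17.7 and 7.05 FPKM, and Usp18, which removes ISG15, overlapped. The lower inhibitor was the phosphatase Ptpn6 at 14.4 to 16.6 FPKM against 16.8 to 17.3 FPKM. Of 13 interferon-inducible GTPases, which attack the vacuoles of intracellular microbes, 3 were higher: Ifi47, Irgm1 and Irgm2. Without knock-out replicate 2 the number was 10 and without wild-type replicate 2 it was 7, and the median of 0.77 was 0.35 with the position covariate. Ifi47 stood at 55.9, 39.9 and 43.6 FPKM against 9.97, 31.4 and 3.69 FPKM. Of 19 genes of MHC class I presentation, which show peptides to T cells, 4 were higher and 0 lower, and all 19 had a positive difference (median 0.43, and 0.09 with the position covariate). The 4 became 19 without knock-out replicate 2 and 12 without wild-type replicate 2. B2m, the invariant light chain, stood at 1299.9, 1113 and 1289 FPKM against 873, 1069.8 and 468 FPKM, and H2-T3 at 52.6, 47.5 and 50.2 FPKM against 11.0, 40.2 and 1.26 FPKM. None of the 8 tested class II genes separated. Markers of T and NK cells, a source of interferon gamma, separated in 0 of 14 tested. All 14 had a positive difference (median 0.64, and -0.0015 with the position covariate). Summed over all 22 measured, these markers stood at 67.9 to 117 FPKM in knock-outs and 20.1 to 86.6 FPKM in wild-types. Their part in these results was not tested.

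**Figure D4:**
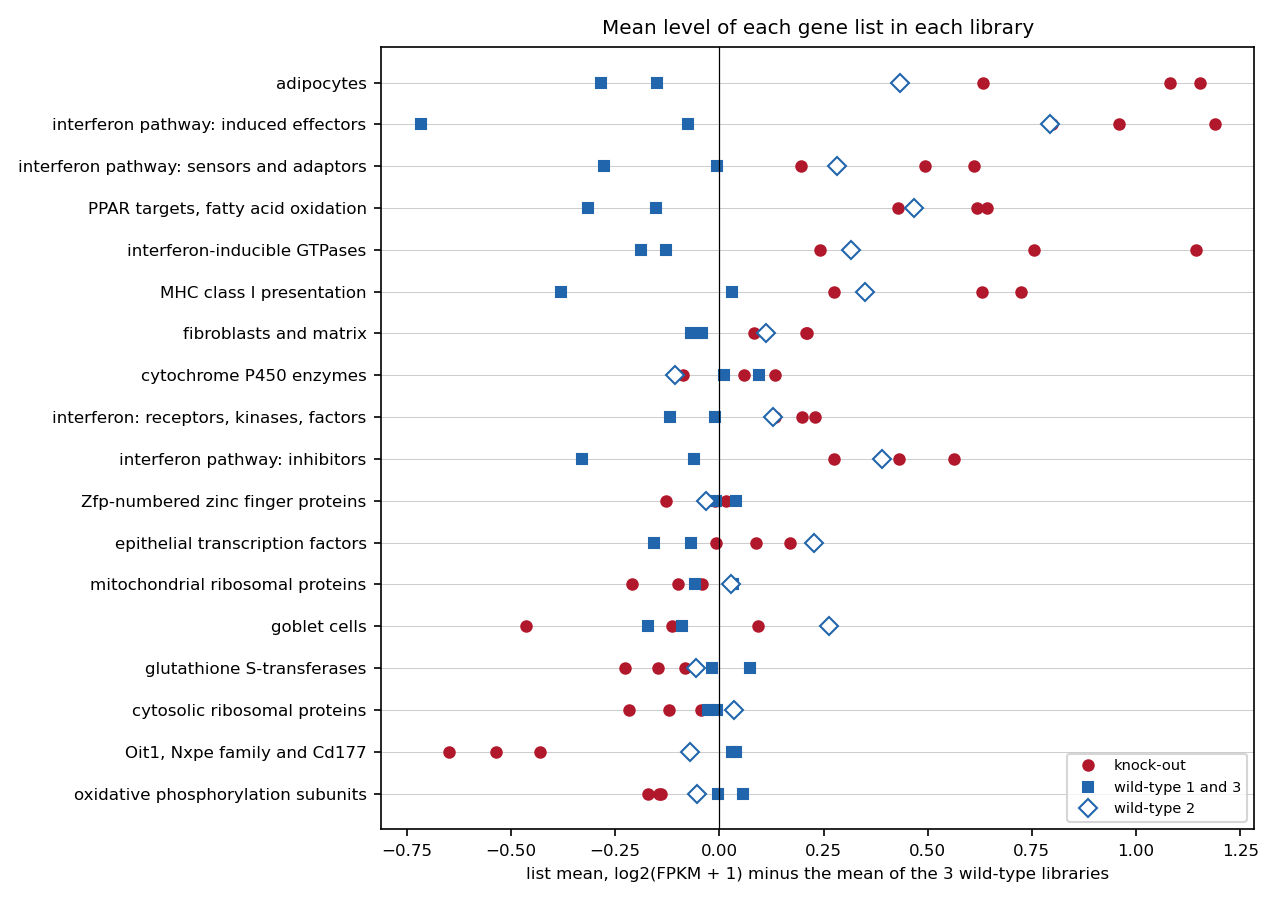
Mean log2(FPKM + 1) of each gene list in each library, minus the mean of the 3 wild-type libraries (x, log2 units). Red circles are knock-outs, filled squares wild-type replicates 1 and 3, and open diamonds wild-type replicate 2. For interferon-induced effectors wild-type replicate 2 lies at 0.79, near the knock-outs. For the Oit1 and respiratory chain lists it lies at -0.07 and -0.05, between the knock-outs and the other wild-types.

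Fat cell genes were mostly higher in knock-out colon. Of 26 listed adipocyte genes 19 were tested, of which 12 were higher (63.2%) and 0 lower, with a median of 0.80, and of 0.26 with the position score as a covariate. Adipoq, Thrsp and Retn passed the minimum mean only through the knock-outs; without them 9 of 16 were higher, and with no minimum 15 of the 26. Adipoq, the fat cell hormone adiponectin, stood at 6.02, 2.35 and 8.90 FPKM in knock-outs and at 0.180, 1.21 and 0.130 FPKM in wild-types. Cfd, the complement factor adipsin made by fat cells, stood at 40.7, 13.8 and 47.2 FPKM against 2.28, 7.55 and 1.37 FPKM. Fabp4, a fatty acid carrier, stood at 28.8, 16.2 and 47.1 FPKM against 3.58, 10.6 and 4.51 FPKM. In all 3 genes knock-out replicate 2 was the lowest knock-out and wild-type replicate 2 the highest wild-type. Car3, a carbonic anhydrase abundant in fat, followed the same order (17.1, 6.35 and 22.7 FPKM against 1.06, 2.79 and 0.880), with a mean 9.76 times that of wild-type (log2 fold change 2.58 ± 0.48, adjusted p = 0.396, limma). So did Cyp2e1, a cytochrome of fat and liver, at 7.55, 4.21 and 9.21 FPKM against 0.280, 1.64 and 0.540 FPKM. The desaturase Scd1, a gene of fat synthesis on the same list, overlapped at 9.90, 7.49 and 11.0 FPKM against 11.4, 7.14 and 12.6 FPKM. Of 29 genes of cholesterol and fatty acid synthesis 1 was higher, the elongase Elovl6 (34.9, 39.8 and 29.9 FPKM against 21.5, 27.3 and 11.4), and 3 were lower. The summed level of all 26 listed adipocyte genes, tested or not, was 568 to 676 FPKM in knock-outs and 381 to 523 FPKM in wild-types. Adipoq, Cfd, Fabp4 and Car3 made up a minor part of this sum. The colon is surrounded by fat, and the amount of it in each sample is not given by the labels; its part in these values was not tested.

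Genes of fatty acid oxidation were also among the higher members. Of 32 PPAR targets and oxidation genes 9 were higher (28.1%) and 0 lower, and 30 had a positive difference (median 0.34). The 9 became 26 without wild-type replicate 2 and 20 without knock-out replicate 2. Cpt2, which carries long fatty acids through the mitochondrial membrane, stood at 64.3, 65.3 and 62.8 FPKM in knock-outs and 40.5, 54.8 and 38.8 FPKM in wild-types. Hadha, of the mitochondrial beta-oxidation complex, stood at 138, 137 and 143 FPKM against 98.7, 128 and 94.2 FPKM. Pdk4, a switch from glucose to fat use, stood at 10.0, 10.2 and 13.1 FPKM against 1.11, 8.95 and 0.260 FPKM. The peroxisomal thiolase Acaa1b was listed at 0 in wild-type replicate 3, at 0.670 FPKM in replicate 1 and at 11.5 FPKM in replicate 2, against 18.2, 15.1 and 19.1 FPKM in the knock-outs. In each of these genes wild-type replicate 2 stood close to the knock-outs, and with the position score as a covariate the list's median was 0.07. Fibroblast and matrix genes were higher in 5 of 27 (18.5%, against 7.13% over all genes tested) and lower in 0. Their median was 0.16, and 0.12 with the position covariate. Next to Ogn the higher genes included Mfap4, a microfibril protein gene (4.62, 6.31 and 4.56 FPKM against 2.27, 3.85 and 1.79), and Thbs1, thrombospondin (10.4, 11.0 and 11.0 FPKM against 6.03, 9.12 and 3.73).

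Enzymes that process foreign compounds were counted by family. Glutathione S-transferases, which couple toxins to glutathione, were lower in 7 of 21 (33.3%, against 9.79% over all genes tested) and higher in 0. Their median was -0.11, and -0.09 with the position covariate. The 7 became 4 with equal FPKM sums, 5 with median centring and 6 with quantile normalization, where 1 was higher. In Gstm3 and Gstt3 the gap was only 0.006 and 0.004 on the log2 scale. Gstm2 stood at 44.2, 42.0 and 42.5 FPKM in knock-outs and 58.4, 52.4 and 62.8 FPKM in wild-types, and Gstm1 at 118, 106 and 112 FPKM against 151, 128 and 166 FPKM. Of 30 cytochrome P450 genes 5 were higher (16.7%) and 3 lower (10%), against 7.13% and 9.79% over all genes tested. Of these, 2 higher genes passed the minimum mean only through the knock-outs and 1 lower gene only through the wild-types. Without genes that passed in this way, 3 of 25 were higher and 2 lower. Cyp2c65 stood at 276, 259 and 276 FPKM against 21.3, 239 and 6.35 FPKM, and Cyp2d9 at 7.71, 14.0 and 15.5 FPKM against 62.6, 19.7 and 36.4 FPKM. UDP-glucuronosyl and sulfotransferases, which make compounds soluble, were higher in 3 of 13 (23.1%, against 7.13% over all genes tested). Their median was 0.50, and 0.02 with the position covariate. Among the 3 was Ugt1a1 at 119, 96.8 and 109 FPKM against 21.2, 78.7 and 7.93 FPKM. These families hold close paralogs, so reads may be split between members.

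Of the lists described, subunits of oxidative phosphorylation held the most lower genes. The respiratory chain passes electrons from NADH and succinate through complexes I to IV to oxygen and pumps protons, and ATP synthase uses the proton gradient. Of 77 nuclear-encoded subunits tested, 39 were lower (50.6%) and 0 higher, and 73 had a negative difference, with a median of -0.15. With the position score as a covariate the median was -0.10. The list mean lay at -0.14, -0.15 and -0.17 in the knock-outs, and at 0.06, -0.05 and -0.00 in the wild-types. Wild-type replicate 2 thus lay between the knock-outs and the other wild-types. In the 39 lower subunits the rule itself puts wild-type replicate 2 on the wild-type side. By complex, 23 of 36 subunits of complex I were lower, 2 of 4 of complex II, 2 of 8 of complex III, 3 of 12 of complex IV and 9 of 17 of ATP synthase. Median differences ran from -0.10 in complex III to -0.19 in complex I.

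In complex I, Ndufb10 stood at 177, 167 and 175 FPKM in knock-outs and 213, 209 and 233 FPKM in wild-types, 79.2% of wild-type in the mean. Ndufc1 stood at 149, 142 and 146 FPKM against 171, 169 and 172 FPKM, and Ndufs3, of its catalytic arm, at 123, 126 and 122 FPKM against 142, 146 and 149.6 FPKM. Both groups were tight in these genes, and knock-out means of 79.2% (Ndufb10), 85.4% (Ndufc1) and 84.9% (Ndufs3) of wild-type went with a gap wider than the range of either group. In ATP synthase, Atp5g3, a subunit of the rotating ring, stood at 619, 588 and 608 FPKM against 717, 698 and 753 FPKM, and Atp5e at 314, 309.6 and 297 FPKM against 347, 349 and 369 FPKM. Sdhc of complex II (153, 169 and 164 FPKM against 192, 184 and 199), Uqcr10 of complex III (425, 351 and 405 FPKM against 543, 460.3 and 522) and Cox8a of complex IV (989, 1048 and 1039 FPKM against 1210.3, 1136 and 1143) showed the same order of groups. Of the 77 subunits 6 met the stricter rule on gaps. Ndufb10 had an adjusted p of 0.396 in limma, and 11 subunits were called lower without wild-type replicate 2.

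**Figure D5:**
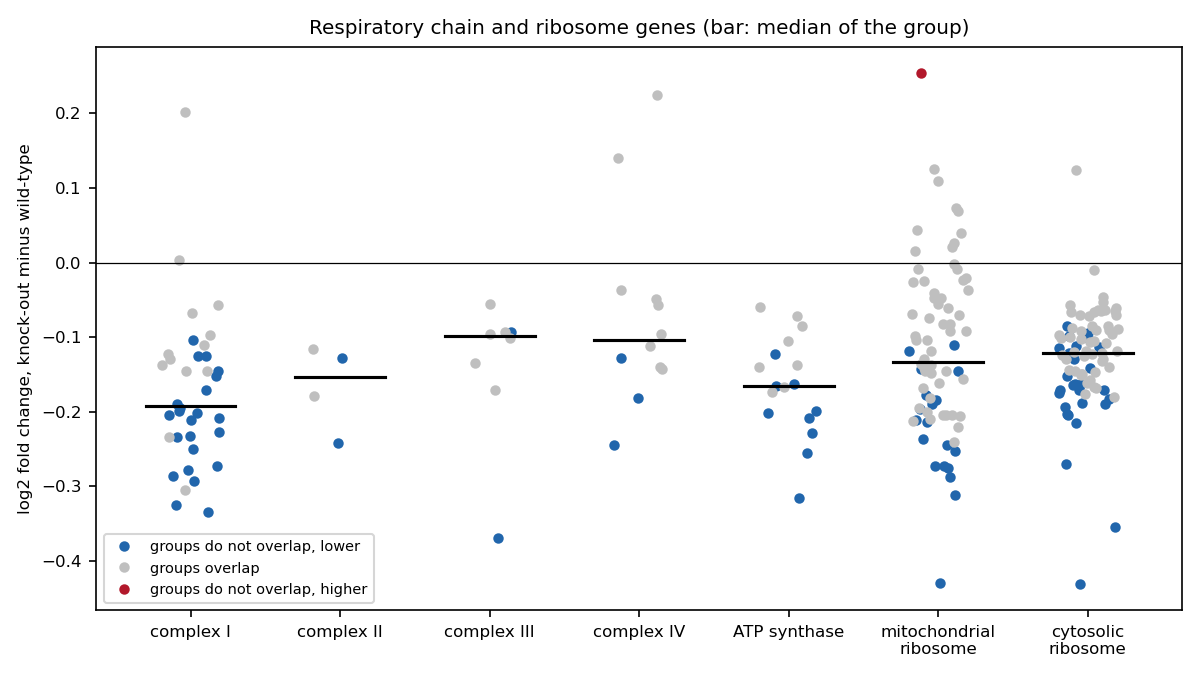
Log2 fold change, knock-out minus wild-type (y), of respiratory chain subunits by complex and of ribosomal protein genes; each point is a gene, blue where all 3 knock-outs lay below all 3 wild-types, red where above, grey where the groups overlapped, and bars are medians. All medians are below 0, from -0.19 in complex I to -0.10 in complex III.

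Ribosomal protein genes were lower by similar small amounts. Of 74 mitochondrial ribosomal proteins 19 were lower (25.7%) and 1 higher, with a median of -0.13 (-0.14 with the position covariate). Mrps21 stood at 108, 99.2 and 100.1 FPKM in knock-outs and 124, 129.7 and 128 FPKM in wild-types, and Mrps35 at 29.6, 30.2 and 29.4 FPKM against 34.5, 34.6 and 37.5 FPKM. Mrpl21, of the large subunit, stood at 24.3, 23.4 and 25.9 FPKM against 31.4, 29.7 and 29.4 FPKM. Of 81 cytosolic ribosomal proteins 28 were lower (34.6%) and 0 higher, and 80 had a negative difference (median -0.12, and -0.17 with the position covariate). Rps28 stood at 667, 573 and 575 FPKM against 738, 753 and 828 FPKM, and Rps6, a target of growth signalling, at 465, 397 and 455 FPKM against 507, 519 and 561 FPKM. Knock-out replicate 2 was the lowest library in the cytosolic list mean (-0.22, against -0.04 and -0.12 in the other knock-outs). Without knock-out replicate 1 the number lower was 55 and without wild-type replicate 1 it was 44; for the mitochondrial list these were 34 and 30. The cytosolic genes have many processed copies in the genome, which can share their reads.

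The counts of these 3 lists depended on how libraries were scaled. For oxidative phosphorylation 28 subunits were lower with equal FPKM sums, 20 with median centring and 27 with quantile normalization. For cytosolic ribosomal proteins the counts were 20, 29 and 6, with 1 higher under quantile normalization, and for mitochondrial ribosomal proteins 17, 17 and 21. Transcript length moved with the lower genes as well. By the longest transcript of the human gene of the same name, the median length was 3625 nt over all matched genes, 4348.5 nt among higher and 3032.5 nt among lower members, and 1582 nt among oxidative phosphorylation subunits. In the shortest of 5 length bins of equal size 4.41% were higher and 14.1% lower, and in the longest bin 10.3% and 6.19%. Within the shortest bin, 23 of 48 oxidative phosphorylation subunits were lower (47.9%) against 13.4% of other genes. The part of length in the differences was not tested.

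Goblet cells secrete the mucus layer. Of 17 tested goblet cell genes 5 were lower (29.4%, against 9.79% over all genes tested) and 0 higher, with a median of -0.13. Zg16, a mucus lectin, stood at 3118, 1433 and 3141 FPKM in knock-outs and 4331, 3879 and 5272 FPKM in wild-types. Tff3, a trefoil peptide, stood at 1179, 524 and 1111 FPKM against 1779, 1363 and 2537 FPKM. Reg4 stood at 10.3, 5.61 and 8.34 FPKM against 109, 11.9 and 196 FPKM, and the mucus-processing protease Clca1 at 437, 211 and 505 FPKM against 1392, 539.7 and 1619 FPKM. Muc2, the main mucin of the colon, did not separate, at 1176, 645 and 1089 FPKM against 475, 1336 and 438 FPKM. Knock-out replicate 2 was lowest in Zg16, Tff3, Reg4 and Clca1. The list mean lay at 0.09, -0.47 and -0.11 in knock-outs and -0.09, 0.26 and -0.17 in wild-types, so the list mean did not separate. With the position score as a covariate the list's median was -0.53.

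Chromatin and genome-defence genes lay near the shares of all genes. Of 256 numbered Zfp genes 16 were higher (6.25%) and 19 lower (7.42%). Of 24 genes of retroelement silencing 2 were higher, Zfp809 and Morc3. Of 15 CTCF and cohesin genes, which shape chromosome loops, Stag2 was higher (22.9, 24.6 and 23.7 FPKM against 22.4, 21.2 and 20.7) and Ctcf lower (16.7, 15.2 and 16.6 FPKM against 17.1, 16.9 and 18.2), each by a narrow gap. Of 32 Polycomb genes 1 was higher and 2 lower, among them Aebp2, a cofactor of the Polycomb methyltransferase, at 9.23, 9.02 and 9.60 FPKM against 10.3, 10.5 and 10.2 FPKM. Of 303 uncharacterised Riken and Gm gene models 27 were higher (8.91%) and 28 lower (9.24%). Genes of mitosis separated in 0 of 26, although 24 had a positive difference (median 0.46, and -0.13 with the position covariate). Of these 26, 18 lay higher without wild-type replicate 2 and 9 were called higher in limma, against 23.5% and 9.21% over all genes. Genes of DNA replication separated in 1 of 34 and p53 targets in 4 of 24.

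Markers of other cell types of the colon wall were counted too, beside shares of 7.13% higher and 9.79% lower over all genes tested. Smooth muscle genes were higher in 2 of 17 and lower in 0, with 16 positive differences (median 0.39, and 0.18 with the position covariate). Endothelial genes were lower in 1 of 7, and all 7 differences were negative (median -0.41, and 0.04 with the covariate). Macrophage and dendritic cell genes were higher in 1 and lower in 1 of 14, with 13 negative (median -0.36, and -0.11 with the covariate). Of 10 genes listed for B and plasma cells, Sdc1 and Prdm1 were higher and Pigr lower, with 7 negative (median -0.69, and -0.14 with the covariate). Prdm1 and Pigr also stand on lists of epithelial genes used here. Colonocyte genes were higher in 2 and lower in 2 of 28 (7.14% each), not far from the shares of all genes. Transcripts of the Y-linked genes Ddx3y, Eif2s3y, Kdm5d and Uty were present in all 6 libraries. Of these 4, Ddx3y and Kdm5d were higher and 0 lower, and the summed levels were 62.8 to 72.7 FPKM in knock-outs and 50.1 to 69.0 FPKM in wild-types.

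The genes that separated in colon were compared with the same-named genes of RKO cells, where the shRNA lowered ZNF280C to 101 ± 22.1 from 197 ± 27.5 units of the deposited signal (SD, n = 3 each). Of 8747 shared names, 41.4% were higher with doxycycline. The share was 43.9% of 565 genes higher in knock-out colon and 40.7% of 881 genes lower there. Of the 565, 2 were called higher and 7 lower in RKO (limma), and of the 881, 3 and 7; over all shared names 0.434% were called higher and 1.07% lower. The colon sets thus lay near the background in the cell line. The RKO calls themselves rest on libraries that share exactly equal values. Doxycycline replicate 2 and untreated replicate 2 shared 310, and doxycycline replicate 3 and untreated replicate 1 shared 526. Only the former pair has the same replicate number. With the replicate number as a block 1 gene in place of 178 was called, but this block does not follow the latter pair.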

How the data were processed

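RNA of 3 knock-out and 3 wild-type colon libraries was taken as deposited FPKM, printed to 2 decimals per the file headers. The RKO table holds deposited signal, although its file name says FPKM after ComBat adjustment, so each table was used on its own. HISAT, Bowtie2, HTSeq, edgeR and hg19 stand in the submitters' processing notes without roles or versions, and the mouse build is not given in the sources used here. Depth is unknown, so no counting interval is given.

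Values were taken as log2(FPKM + 1) for genes with a mean of at least 1 FPKM and tested in R 4.3.3 by limma 3.58.1 (moderated statistics, variance trend, Benjamini-Hochberg adjustment over all genes tested, threshold 0.05). The procedure was run on simulated data with independent noise in each gene and library. No simulated library departed from its group as wild-type replicate 2 does, so the simulation cannot speak to that case. The members, gene lists and tests were chosen with earlier results of these data known. Named were Zfp280c, Dtx3l, Oit1, per direction the 15 widest gaps and 10 lowest p among separated genes, and up to 6 members per list by gap, of which the text gives the ones that matter; all other names (genes that overlapped, markers, Parp9, Ifi27, Irf2, Atp5e, Elovl6, Ddx3y, Kdm5d, Cox8a, Sdhc and Uqcr10 among them) were chosen after their values were seen. Human lengths came from GENCODE v29, with 10097 genes matched by symbol and 324 by a RefSeq synonym. The main fit did not pair libraries by replicate number. Deviations of same-numbered libraries from their group means correlated at -0.45, -0.14 and 0.15. Since wild-type replicate 2 stood apart from the other wild-types, these correlations cannot decide whether same-numbered libraries share a litter or batch. Alternatives were other pseudocounts, minimum means and scalings, robust variance, a replicate block, the position covariate and leaving out each library. In the list of interferon receptors, kinases and factors 1 gene is not reported here; the list was counted with it.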

Additional observations from a re-analysis of the deposited data

How the results depend on the processing

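With all libraries, limma called 0 colon genes under each pseudocount, minimum mean and scaling, with robust variance, with the replicate block and with the position covariate; unadjusted p under 0.05 ranged from 426 to 1838 genes. Leaving out 1 library gave 0 to 1861 calls, all of them without wild-type replicate 2. Separated genes then numbered 997 to 2663 higher and 1316 to 2838 lower, partly because fewer values have to separate. Of 36 counts of list members higher or lower, 23 moved by over 1.5 times without wild-type replicate 2, 14 without knock-out replicate 2, 11 without knock-out replicate 3, 6 each without knock-out replicate 1 and wild-type replicate 1, and 1 without wild-type replicate 3. The 39 lower oxidative phosphorylation subunits became 41 to 55 when 1 library was left out, and the 12 higher adipocyte genes 11 to 15. The 4 lower genes of the Oit1, Nxpe and Cd177 list stayed 4 each time. A gene separated with all libraries stays separated when 1 is left out, unless its mean falls under the minimum. These counts could therefore hardly fall, and they are no measure of robustness. Under rescaling 4 counts moved that far with equal FPKM sums, 5 with median centring and 9 with quantile normalization. Zfp280c was called only without wild-type replicate 2 (log2 fold change -1.75, adjusted p = 0.00205, limma), and over the leave-one-out fits its fold change ranged from -1.75 to -1.57; it was not tested at a minimum mean of 5 FPKM. With the replicate number as a block its adjusted p was 0.453 in limma and 0 genes passed, so the block changed no call. Of the 174 named genes, 113 passed without wild-type replicate 2, and H2-D1 alone turned its sign, to -0.00476 with the position covariate; the cause was not tested. The RKO count of 178 was 1 with the replicate block and 1 to 24 when 1 library was left out; the cause was not tested. Unknown depth limits what can be said of low genes.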
